A study of Mus musculus with 26 samples.

Results

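Zscan4 overexpression was compared with untreated mouse embryonic stem cells (ESCs) over 4 poly(A) RNA-seq libraries, 2 per group, taken by their sample titles from the 26 libraries of the series. All were R1 cells, a mouse ESC line, labelled WT and grown with LIF on gelatin. The Zscan4 OE libraries were labelled as overexpressing ZSCAN4 and as treated with doxycycline for 24 h, and the ESC libraries as receiving no treatment. DMSO-treated ESCs, also labelled WT, supplied 2 further libraries, which were used to mark changes that the solvent-treated cells showed as well. The protocol gives a doxycycline dose of 4 µg/mL for DUX expression, and gives no time for DMSO. The labels do not say which Zscan4 copy was expressed, under which promoter, or whether the line was 1 clone. An uninduced culture of the Zscan4 line was not analysed here, so doxycycline, the transgene and the derivation of the line cannot be told apart in this comparison.

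Zscan4 genes encode nuclear proteins with a SCAN domain and zinc fingers. They are transcribed in the 2-cell mouse embryo, and ESC cultures hold a small, changing set of cells that express them. In ESCs the family is known for telomere elongation by recombination, genome stability and the transient state called 2-cell-like, which also includes Dux, a homeodomain transcription factor, and many young gene families. In bulk libraries, more cells in such a state and more RNA per cell cannot be told apart.

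The Zscan4 copies lie side by side on chromosome 7 and are closely similar, which bears on how their reads can be counted. Promoter windows of 300 bases (250 before to 50 after the gene start, RefSeq, GRCm38.p6) were read for the copies that had one, and those of Zscan4c, Zscan4d and Zscan4f are shown together with that of Abcb5, the called gene with the largest rise under the naming rule. Capitals mark matches, on either strand, to TATAAA (a common core promoter element), to GATTNNATC (the core of a motif described for mouse Dux) and to TGCACAC (a motif described for Zscan4).
Zscan4c (chr7:11005495-11005794, plus strand): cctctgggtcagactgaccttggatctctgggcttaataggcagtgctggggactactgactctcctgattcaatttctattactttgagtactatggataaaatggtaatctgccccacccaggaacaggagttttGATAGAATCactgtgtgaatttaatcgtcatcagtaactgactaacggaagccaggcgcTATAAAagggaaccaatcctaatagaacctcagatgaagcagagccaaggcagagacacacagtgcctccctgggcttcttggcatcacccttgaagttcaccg
Zscan4d (chr7:11166099-11166398, minus strand): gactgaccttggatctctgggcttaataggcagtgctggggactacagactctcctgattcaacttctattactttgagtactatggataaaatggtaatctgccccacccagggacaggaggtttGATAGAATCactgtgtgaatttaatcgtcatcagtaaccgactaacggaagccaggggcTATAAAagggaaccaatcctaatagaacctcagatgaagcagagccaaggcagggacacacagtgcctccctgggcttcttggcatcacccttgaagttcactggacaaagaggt
Zscan4f (chr7:11397665-11397964, plus strand): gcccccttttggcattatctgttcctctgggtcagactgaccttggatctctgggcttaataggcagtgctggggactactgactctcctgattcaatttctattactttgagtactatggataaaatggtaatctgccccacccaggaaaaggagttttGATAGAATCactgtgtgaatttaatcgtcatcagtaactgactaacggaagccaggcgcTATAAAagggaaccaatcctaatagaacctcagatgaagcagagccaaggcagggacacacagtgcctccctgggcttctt
Abcb5 (chr12:118966372-118966671, minus strand): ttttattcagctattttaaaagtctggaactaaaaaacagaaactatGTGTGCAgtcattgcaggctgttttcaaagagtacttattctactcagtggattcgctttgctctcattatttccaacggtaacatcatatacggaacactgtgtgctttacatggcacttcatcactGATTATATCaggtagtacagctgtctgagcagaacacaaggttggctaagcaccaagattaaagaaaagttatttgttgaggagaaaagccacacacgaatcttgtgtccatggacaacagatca
Aligned without gaps, the windows of Zscan4c and Zscan4f shared 275 of 277 bases (99.3%), and those of Zscan4c and Zscan4d shared 281 of 289 (97.2%). Those of Zscan4b and Zscan4c shared 264 of 277 (95.3%). Exon sequences were not compared. Counted from the first base of the window, the GATTNNATC match began at base 138 in Zscan4c, 127 in Zscan4d and 161 in Zscan4f, and the TATAAA match followed at base 197, 186 and 220. The Abcb5 window held GATTNNATC at base 176 and TGCACAC, on the opposite strand, at base 48, and no TATAAA. Among the 13364 tested genes with a window, 152 (1.14%) held GATTNNATC, 500 (3.74%) TGCACAC and 1080 (8.08%) TATAAA. A window was found for 335 of the 638 genes higher in Zscan4 OE than in both controls (52.5%). Of the 335, 20 held GATTNNATC (5.97%), 25 TGCACAC (7.46%) and 51 TATAAA (15.2%). Those with GATTNNATC included Zscan4b, Zscan4c, Zscan4d, Zscan4f, Duxf3, Gm4340, Gm21761, Gm12790 and AF067061. The Zscan4 windows are near-copies of each other, so they do not count as separate promoters. With this coverage, a comparison of motif shares between gene groups is void. A match is a string of letters and no binding was measured.

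The counted reads numbered 15566922 and 18579218 in Zscan4 OE, 17974650 and 16880605 in ESC, and 18772147 and 19453495 in DMSO. Levels are given as CPM, the count scaled to a fixed library total after TMM normalization (trimmed mean of M values). Reads from the mitochondrial genome made up 2.58% of counts in both Zscan4 OE libraries and 3.09% to 3.16% in the ESC and DMSO libraries, and the part of that difference in the results was not tested. All 6 markers of mouse ESCs (Pou5f1, Sox2, Nanog, Zfp42, Esrrb and Dppa5a) were expressed, with a summed level of 5450 and 5340 CPM in Zscan4 OE, 4670 and 4690 CPM in ESC, and 5890 and 5950 CPM in DMSO, and none was called changed. Of 9 fibroblast markers, Col3a1, Postn, Dcn, Lum and Prrx1 stood at 3 counts or fewer in all 6 libraries, and the 9 together summed to 19.9 and 19.1 CPM in Zscan4 OE, 25.7 and 27.6 CPM in ESC and 36.9 and 35.8 CPM in DMSO. The 6 primitive endoderm markers summed to 7.12 and 6.25 CPM in Zscan4 OE, 7.04 and 6.93 CPM in ESC and 10.7 and 8.83 CPM in DMSO. The 6 trophectoderm markers summed to 10.2 and 11.2 CPM in Zscan4 OE, 6.04 and 6.60 CPM in ESC and 11.6 and 14.2 CPM in DMSO, with Elf5 and Gata3 at 3 counts or fewer in every library. Most of it came from Eomes, at 9.32 and 10.4 CPM in Zscan4 OE, 4.67 and 5.47 CPM in ESC and 11 and 13.3 CPM in DMSO, which was called higher in DMSO against ESC and not called in Zscan4 OE. The part of these differences in the results was not tested. The labels do not say whether the 2 libraries of a group came from separate cultures. The p-values measure only the spread between libraries of the same group, estimated jointly over all 13 groups of the series, which may be technical.

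Of 20953 genes tested, 1520 (7.25%) were higher and 919 (4.39%) were lower in Zscan4 OE than in ESC, at an adjusted p under 0.05 and a 2-fold change in edgeR's quasi-likelihood test. Thus 62.3% of the 2439 called genes were higher. With scaling by library size only, 1969 were higher and 603 lower (76.6% higher), and the median log2 fold change over all genes moved from 0.00 to 0.15, so the balance of the 2 directions depends on the scaling. Among the genes described further on, Utf1, Lama1, Lamc1, Fdft1, Hk1, Gapdh, mt-Nd4, mt-Nd6, Rplp2 and Irf1 were not called lower under that scaling. The calls of Sycp2, mt-Atp6, Plagl1, Msx2, Srsf12, Fst, Usp29, Zfp947, Gapdh, Rplp2, Irf1 and Fdft1 were lost without 1 of the 4 libraries. Most changes were moderate, since 900 of the higher genes and 705 of the lower genes changed by less than 2 on the log2 scale, while 328 rose and 73 fell by 3 or more. Many of the higher genes started near the detection floor: 100 had no counts in either ESC library and 192 had 1 to 3 counts over both, so their fitted fold changes depend on the prior count.

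DMSO against ESC gave 1743 genes higher (8.32%) and 1658 lower (7.91%), and Zscan4 OE against DMSO gave 1598 higher (7.63%) and 1076 lower (5.14%). Changes seen with DMSO as well were marked gene by gene. Of the 1520 genes higher in Zscan4 OE, 543 were also called higher in DMSO against ESC, which is 35.7% of the Zscan4 OE list and 31.2% of the DMSO list. Of the 919 lower genes, 403 were also called lower in DMSO against ESC, 43.9% of the Zscan4 OE list and 24.3% of the DMSO list. Both comparisons use the same ESC libraries, so an ESC library that departs from the rest moves both, and the counts carry no test. A further 122 of the higher genes were called lower in DMSO. The genes called in the same direction against both controls, and not marked by DMSO, numbered 638 higher and 205 lower. They are described first, followed by the marked genes.

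**Figure D1:**
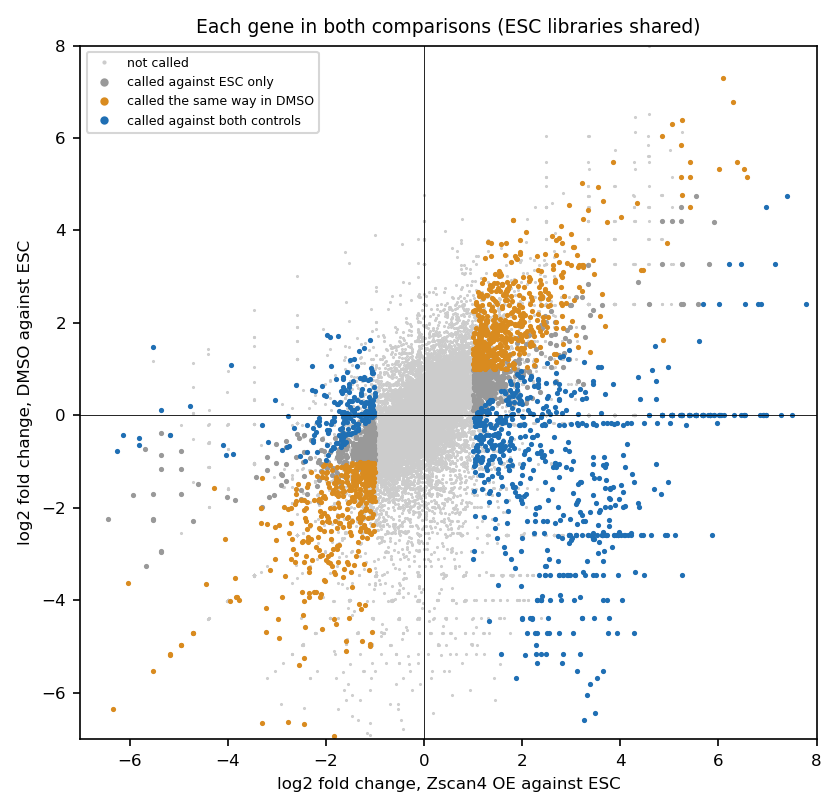
Log2 fold change of each tested gene in Zscan4 OE against ESC (horizontal axis) and in DMSO against ESC (vertical axis), with the same ESC libraries in both; 3 genes lie outside the axes. Blue points are the 843 genes called in the same direction against both controls and not marked by DMSO, orange points the 946 genes called the same way in DMSO, dark grey points the 650 genes called against ESC only and light grey points the 18514 genes not called. Straight rows of points are genes with no or few counts in the controls.

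All 9 Zscan4 copies were higher in Zscan4 OE. Their summed level was 703 and 706 CPM in Zscan4 OE, 50.0 and 50.1 CPM in ESC, and 12.7 and 11.7 CPM in DMSO. No library of one group overlapped another. Zscan4c, a copy that ESCs are known to express, stood at 100 and 103 CPM in Zscan4 OE against 5.73 and 6.13 CPM in ESC, a log2 fold change of 4.10 ± 0.12 (SE, n = 2 per group; adjusted p = 1.7e-18, edgeR). Zscan4d, the copy best known from the 2-cell embryo, stood at 116 and 122 CPM against 12 and 10.1 CPM, a log2 fold change of 3.42 ± 0.14 (adjusted p = 7.2e-16, edgeR). Zscan4f had 56.2 and 53.2 CPM against 3.11 and 2.13 CPM and the log2 fold change of largest size in the family, 4.37 ± 0.21 (adjusted p = 7.8e-15, edgeR). The remaining copies, Zscan4a, Zscan4b, Zscan4e, Zscan4-ps1, Zscan4-ps2 and Zscan4-ps3, rose by between 3.56 and 4.06 on the log2 scale.

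Per kilobase of exon, the levels of the copies in Zscan4 OE ran from 10.4 and 11.9 CPM per kb for Zscan4-ps1 to 61.0 and 67.0 CPM per kb for Zscan4a. Below Zscan4a came Zscan4d (51.0 and 53.5 CPM per kb) and Zscan4c (43.9 and 45.3 CPM per kb), with the values of Zscan4-ps3 (55.9 and 44.8 CPM per kb) overlapping those of both. Then followed Zscan4e (36.3 and 35.9 CPM per kb), Zscan4f (28.7 and 27.1), Zscan4-ps2 (23 and 24.7) and Zscan4b (14.8 and 16.2). In ESC, Zscan4d (5.26 and 4.46 CPM per kb) and Zscan4a (4.43 and 4.83 CPM per kb) overlapped, and Zscan4e (2.81 and 3.16 CPM per kb) stood above Zscan4c (2.52 and 2.69 CPM per kb), the reverse of their order in Zscan4 OE. The copies are closely similar, though their exons were not compared, and the treatment of reads that fit several places was not given in the sources used here. The share of each copy is therefore uncertain, and reads of the transgene may be counted on one or more of them. In DMSO, each of the 9 copies was called lower than in ESC, with a median log2 fold change of -1.95, so that the median against DMSO was 5.83 beside 3.90 against ESC. In the libraries titled Dux KD Zscan4 OE, whose treatment label reads no, the 9 copies summed to 23.4 and 20.1 CPM. Most of that sum was Zscan4f, at 16.0 and 13.3 CPM against 3.11 and 2.13 CPM in ESC. Zscan4-ps1 had 3.51 and 2.71 CPM against 1.74 and 2.07 CPM in ESC, and each remaining copy stood below its ESC values. Whether transgene reads make up the Zscan4f level was not tested.

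**Figure D2:**
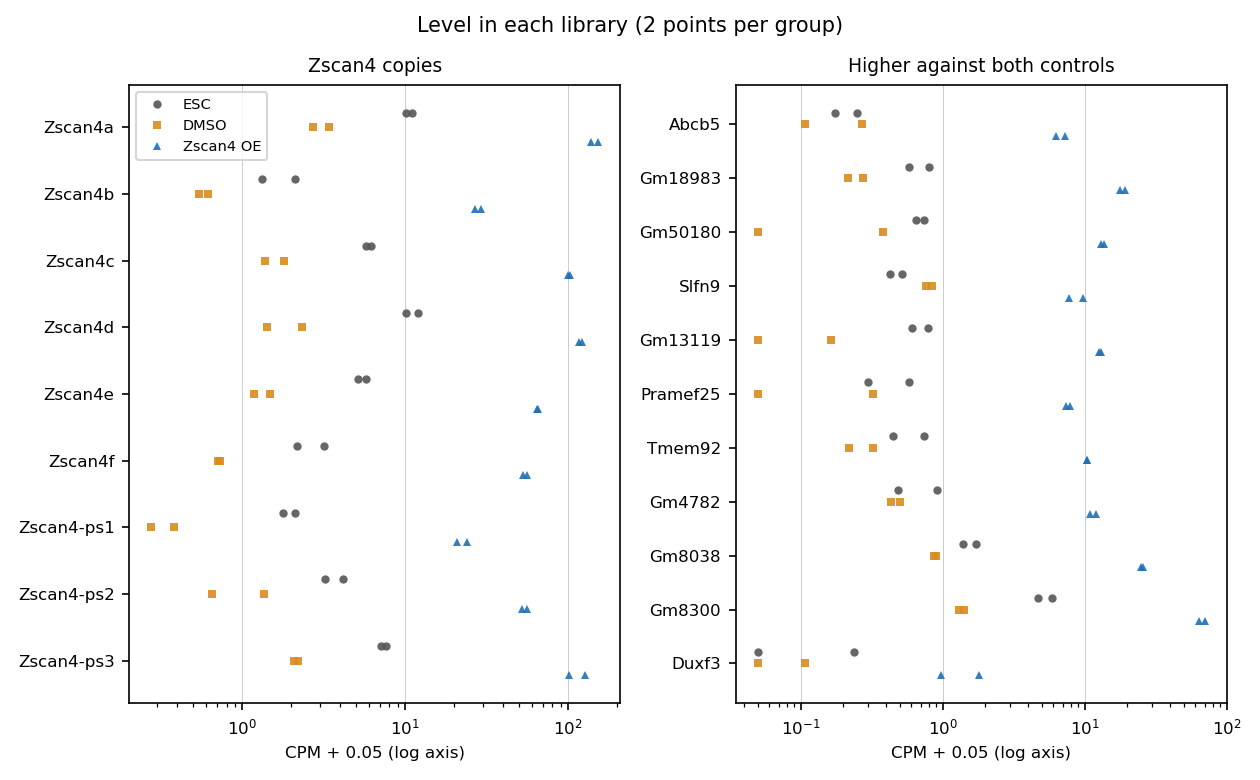
Level of each gene in each of the 6 libraries, as CPM + 0.05 on a log axis, for the Zscan4 copies (left) and for the other named genes higher against both controls (right). Circles are ESC, squares DMSO and triangles Zscan4 OE, with 2 points per group and no averaging. The triangles of every Zscan4 copy lie to the right of the ESC and DMSO points.

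Genes of the 2-cell-like state outside the Zscan4 family rose with it. Of 59 listed genes, 51 were tested, 37 were higher (72.5%, against 7.25% of all genes) and none was lower at these thresholds. The list's median log2 fold change was 2.73, against 0.00 over all genes. With levels raised to the floor of 3 counts, the median was 2.73 over the 45 members not at the floor in both groups. That median leaves out members at the floor in both Zscan4 OE and ESC, so the 2 medians cover different genes. None of the 37 was marked by DMSO, and 18 of the 51 were called lower in DMSO against ESC. DESeq2 also called 37 genes of the list. Members low in ESC and DMSO were tested only if other libraries, Zscan4 OE among them, held enough reads, which bears on the share called. Gm8300, a gene of an Eif1a-like family active in the 2-cell embryo, had 69.8 and 64.1 CPM in Zscan4 OE, 4.61 and 5.87 CPM in ESC and 1.25 and 1.37 CPM in DMSO, a log2 fold change of 3.68 ± 0.21 against ESC (adjusted p = 7.6e-13, edgeR). Tmem92, which encodes a membrane protein and marks 2-cell-like cells, had 10.4 CPM in both Zscan4 OE libraries against 0.685 and 0.40 CPM in ESC, a log2 fold change of 4.23 ± 0.31 (adjusted p = 7.9e-11, edgeR). Among Prame-like genes, Pramef25 had 7.83 and 7.33 CPM against 0.249 and 0.533 CPM, and Gm13119 had 12.6 and 12.9 CPM against 0.561 and 0.733 CPM. Their log2 fold changes were 4.27 ± 0.32 and 4.29 ± 0.26. Arg2, a mitochondrial arginase, had 7.12 and 5.70 CPM against 0.810 and 1.20 CPM, and all 5 measured Usp17l deubiquitinase copies (Usp17la to Usp17le) rose by 1.98 to 2.83 on the log2 scale.

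Duxf3, the entry for Dux used here, was detected at a low level. It had 27 and 17 counts in Zscan4 OE, 3 and 0 in ESC, and 1 and 0 in DMSO. The ratio of its mean CPM to that of ESC was 14.3, with a 95% counting interval of 4.58 to 72.0 (exact conditional binomial), and it was called higher (adjusted p = 3.5e-04, edgeR). Duxf3 stood at 4.01 and 3.24 CPM in the Dux overexpression libraries of the series and at 9.25 and 8.21 CPM in its PlaB libraries. Whether reads of a Dux transgene, or reads that fit several places, are counted on Duxf3 is not given. Zfp352, a retrotransposed zinc finger gene of the 2-cell embryo, had 19 and 27 counts in Zscan4 OE, 3 and 0 in ESC and none in DMSO (adjusted p = 3.2e-05, edgeR). The intervals cover counting error only. Genes known to switch Dux on or off were mostly not called: of 26 such regulators, 1, the homeobox gene Crxos, was higher (3.85%), with 2.52 and 3.31 CPM against 0.311 and 1.0 CPM, and the median was 0.11. The summed level of the 2-cell-like list outside the Zscan4 family was 935 and 934 CPM in Zscan4 OE, 468 and 482 CPM in ESC, 348 and 354 CPM in DMSO, and 514 and 413 CPM in the Dux KD Zscan4 OE libraries. Most of the ESC sum came from Nelfa (104 and 103 CPM) and Tbx3 (298 and 316 CPM), which were not called. Without these 2 genes, left out after their values were seen, the list summed to 519 and 507 CPM in Zscan4 OE, 65.4 and 63.4 CPM in ESC, 24.5 and 22.3 CPM in DMSO, and 17.9 and 25.4 CPM in the Dux KD Zscan4 OE libraries, so the Zscan4 OE libraries stood above all the others named.

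Of the 638 genes higher than in both controls, 128 (20.1%) lay in 16 runs along the chromosomes, and the other 510 lay in none. A run was defined as 5 or more such genes with no gap over 500000 bases between neighbours, a rule set with the values known, so the runs are a description without a test. The low-count filter drew on all 26 libraries, so a gene low in ESC and DMSO was tested only if other libraries held enough reads of it. Zscan4 OE could be among those libraries, so the numbers called of those tested are partly set by the filter. All positions are those of the deposited table (mm10). The run with the most genes, chr12:87480108-88324026, held 31 called genes of 58 tested, from Gm18983 to Gm5039, with a median log2 fold change of 3.64; its called genes summed to 526 and 494 CPM in Zscan4 OE, 43.9 and 42.3 CPM in ESC and 8.34 and 6.96 CPM in DMSO, and 1 gene in the span was lower. It is the home of the Eif1a-like copies. The Zscan4 run itself, chr7:10794242-11614112, held 12 called genes of 21 tested, so that 3 neighbours (Gm18204, Gm6909 and Gm45551) were higher beside the 9 copies. The run chr13:119827961-120318178, which holds Tcstv3 and AF067063, genes of the 2-cell embryo, had 8 of 14, and the Prame-like run chr4:143551700-144364419 had 8 of 13 with a median log2 fold change of 4.28.

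In 3 runs, all tested genes were called, though the filter partly set which genes were tested. At chr10:57794335-58240661, which holds Duxf3, these were Smpdl3a, AW822073, Gm10807, Duxf3, Gm4981 and Gm19459, summing to 5.63 and 5.27 CPM in Zscan4 OE and 0.436 and 0.267 CPM in ESC. At chr11:94756976-94846092, Tmem92 and 5 neighbouring gene models (Gm11543, Gm11544, Gm11545, Gm11546 and AA623943) summed to 24.9 and 26.5 CPM against 1.74 and 1.87 CPM. At chr4:101717404-101981049, Lepr, the leptin receptor gene, rose with B020004J07Rik, C130073F10Rik, Gm12790, Gm12794 and Gm12800, from 2.93 and 2.73 CPM in ESC to 15.0 and 17 CPM. A run at chr1:85105946-85778643 held 7 called genes of 15, with Sp110 and Sp140, nuclear body proteins of the Sp100 family. Other runs held Tdpoz3 and Tdpoz4 on chromosome 3, Xlr3a, Xlr3b and Xlr3c on the X chromosome, Slfn9, Slfn2 and Slfn3 on chromosome 11, and zinc finger genes on chromosomes 4, 13 and 17. Copies within a run resemble each other and share reads to an unknown degree, so the number of called genes in a run is not a number of independent genes.

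**Figure D3:**
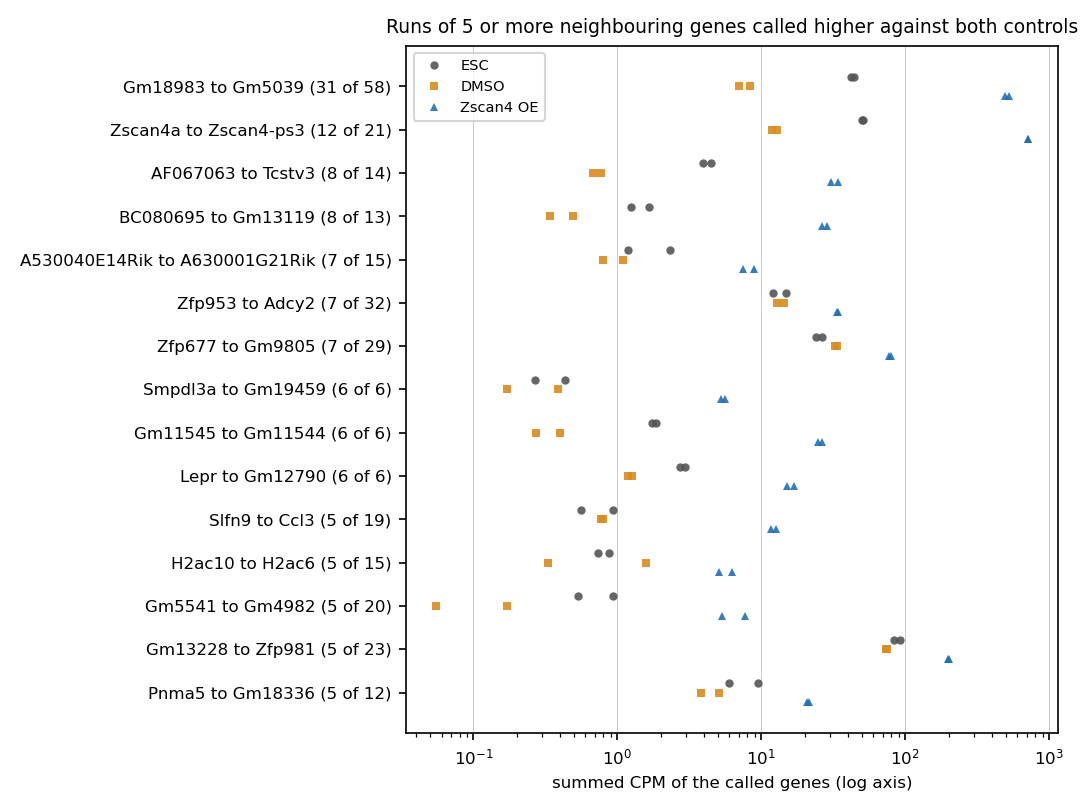
Summed CPM of the called genes of each run of neighbouring genes in each library, on a log axis, named by the first and last called gene with the number called and tested. Circles are ESC, squares DMSO and triangles Zscan4 OE, 2 points per group; 1 run is not drawn. In every run drawn, both triangles lie to the right of all ESC and DMSO points. The summed genes were chosen as called higher against both controls, so this separation follows from the choice.

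By GENCODE M21 names, 104 of the 638 genes higher than both controls (16.3%) were pseudogenes and 389 (61.0%) were protein-coding, while among all genes tested 8.95% were pseudogenes and 74.2% protein-coding. The 543 higher genes marked by DMSO held 25 pseudogenes (4.60%) and 473 protein-coding genes (87.1%). The median level of the 638 genes was 0.320 CPM in ESC and 1.79 CPM in Zscan4 OE, and that of the 205 genes lower than both controls was 5.08 CPM in ESC and 1.75 CPM in Zscan4 OE.

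Outside these families, Abcb5, a membrane transporter, had 6.21 and 7.17 CPM in Zscan4 OE, 2 and 3 counts in the ESC libraries and 1 and 4 counts in the DMSO libraries. Its log2 fold change against ESC was 5.33 ± 0.45 (adjusted p = 1.1e-09, edgeR). Slfn9, a Schlafen gene, had 7.70 and 9.61 CPM against 0.374 and 0.467 CPM in ESC, a log2 fold change of 4.35 ± 0.41 (adjusted p = 4.3e-09, edgeR). Both groups of control libraries stood far below Zscan4 OE for these genes. The predicted genes Gm18983, Gm50180, Gm4782 and Gm8038 filled the rest of the naming rule, with log2 fold changes of 4.06 to 4.83. Gm8038 was the most abundant of them, with 25.0 and 25.6 CPM against 1.68 and 1.33 CPM in ESC.

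Germline genes rose in part. Of 27 tested, 11 were higher (40.7%), 9 of them also against DMSO, none was lower, and the median log2 fold change was 0.73. Over all genes, 7.25% were higher and 4.39% lower. Shares in this list and in those described below are to be read against these values. Dazl, an RNA-binding protein of germ cells, had 38.6 and 41.6 CPM in Zscan4 OE, 6.54 and 8.06 CPM in ESC and 3.97 and 3.40 CPM in DMSO, a log2 fold change of 2.46 ± 0.16 (adjusted p = 5.5e-12, edgeR). Taf7l, a germ-cell subunit of the general transcription machinery, had 7.12 and 5.92 CPM against 1.37 and 2.13 CPM, and Slc25a31, a germ-cell carrier of ADP and ATP, had 5.95 and 5.65 CPM against 1.62 and 1.87 CPM. Mael, Stk31, Asz1, Xlr3a and Rhox9 were also higher than both controls.

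Telomere and meiotic recombination genes, the process Zscan4 is known for, split by control. Of 36 tested, 9 were higher (25%), 2 of them than both controls, none was lower, and the median was 0.23. All 9 encode meiotic proteins, and 5 of them (Sycp3, Sycp2, Dmc1, Msh5 and Meiob) were marked by DMSO. Sycp3, of the synaptonemal complex, had 9.58 and 7.98 CPM in Zscan4 OE and 9.64 and 10.8 CPM in DMSO against 1.37 and 1.40 CPM in ESC, and Meiob, a single-stranded DNA-binding protein of meiosis, was lower in Zscan4 OE than in DMSO (1.29 and 1.74 CPM against 4.60 and 4.66 CPM). Hormad1, a protein of the meiotic chromosome axis, and Tex12, of the synaptonemal complex, were higher than both controls. Hormad1 had 13.8 and 11.9 CPM against 3.74 and 3.93 CPM in ESC and 1.93 and 1.48 CPM in DMSO (log2 fold change 1.74 ± 0.22, adjusted p = 5.0e-07, edgeR).

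Histone and zinc finger genes formed further groups that rose in part. Of 54 replication-dependent histone genes tested, 11 were higher (20.4%), 3 of them marked by DMSO and 6 higher than both controls. The median was 0.99. Over the 49 members not at the floor in both groups, it was 0.95 with levels raised to the floor. These transcripts normally lack a poly(A) tail, and the libraries were poly(A)-selected. In DMSO against ESC, 11 histone genes of the list were called higher and 3 lower, with a median of 0.46. The list summed to 183 and 184 CPM in ESC and 342 and 343 CPM in DMSO, and both Zscan4 OE libraries lay between. Its summed level was thus highest in DMSO. In Zscan4 OE against DMSO, 13 members were called higher and 1 lower, with a median of 0.63. H4c9 had 8.54 and 6.41 CPM in Zscan4 OE against 2.30 and 2.87 CPM in ESC and 1.87 and 0.823 CPM in DMSO, and H2ac10 had 2.20 and 1.58 CPM against 0 and 0.0667 CPM. Of 58 zinc finger genes with symbols of the form Zfp9xx, 19 were higher (32.8%), 7 of them also than in DMSO and 4 marked by DMSO, none was lower, and the median was 0.76. Zfp980, for example, had 69.7 and 72.3 CPM against 25.9 and 28.2 CPM in ESC and 33.8 and 33.4 CPM in DMSO, and Zfp947 had 3.75 and 4.67 CPM against 1.49 and 1.73 CPM.

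Of 34 p53 targets, 6 were higher (17.6%) and 2 were lower (5.88%), with a median of 0.20. All 6 higher genes were also higher than in DMSO. The lower share lay near the 4.39% over all genes. Trp53inp1, which promotes autophagy and cell death, had 607 CPM in both Zscan4 OE libraries, 225 and 226 CPM in ESC and 125 and 122 CPM in DMSO, a log2 fold change of 1.43 ± 0.13 (adjusted p = 1.8e-09, edgeR). Plk2, a stress-induced kinase, had 75.5 and 72.0 CPM against 30.1 and 28.7 CPM, and Btg2, an antiproliferative gene, had 126 and 128 CPM against 60.7 and 58.9 CPM. Mdm2, the ubiquitin ligase of p53, rose at the threshold of the call, from 115 and 121 CPM to 238 and 233 CPM (log2 fold change 1.0 ± 0.09, adjusted p = 3.5e-09, edgeR). Fas and Polk were the other higher genes. Sesn1, an inhibitor of mTORC1 signalling, fell from 37.4 and 41.8 CPM to 15.7 and 16.5 CPM, and Dglucy was lower and was marked by DMSO.

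Of 25 ERK signalling targets, 5 were higher (20%), 3 of them marked by DMSO, and Etv4 was lower, with a median of 0.31. Egr1, an immediate early transcription factor, had 106 and 118 CPM in Zscan4 OE, 34.4 and 32.3 CPM in DMSO and 8.72 and 8.73 CPM in ESC, so that the 3 groups did not overlap. Its log2 fold change was 3.68 ± 0.19 against ESC (adjusted p = 6.5e-14, edgeR), 1.93 in DMSO against ESC and 1.75 against DMSO. Jun, an AP-1 subunit, was not marked by DMSO: it had 14.8 and 15.0 CPM in Zscan4 OE against 2.87 and 2.80 CPM in ESC and 3.01 and 2.52 CPM in DMSO (log2 fold change 2.39 ± 0.18, adjusted p = 5.9e-11, edgeR). Fos, its partner, had 8.35 and 8.69 CPM against 2.06 and 1.53 CPM in ESC and 6.24 and 5.59 CPM in DMSO. The phosphatase genes Dusp4, marked by DMSO, and Dusp1 were higher as well.

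Among genes lower than both controls, Ccnd2, which encodes cyclin D2, fell furthest under the naming rule. It had 5.24 and 6.03 CPM in Zscan4 OE, 43.6 and 40.2 CPM in ESC and 25.7 and 24.5 CPM in DMSO, a log2 fold change of -2.89 ± 0.15 against ESC (adjusted p = 1.3e-13, edgeR). Flnc, a filamin that crosslinks actin, had 12.2 and 13.4 CPM against 62.7 and 60.3 CPM in ESC, and Tenm3, a teneurin adhesion protein, had 14.3 and 13.3 CPM against 66.5 and 66.0 CPM. Their log2 fold changes were -2.27 ± 0.13 and -2.26 ± 0.12. Ptges, prostaglandin E synthase, had 2.98 and 5.87 CPM in Zscan4 OE, more apart than its 20.8 and 20.7 CPM in ESC, and Pcdh1, a protocadherin, had 3.95 and 3.91 CPM against 17.6 and 14.8 CPM. Pnma2, Kctd1, Brd3os, Armc2, Gm2000 and Dipk1b fell by 2.00 to 2.19 on the log2 scale. The runs of lower genes were 2 in number: 5 genes at chr3:107888850-108445209, with Gstm1, Gstm7, Gnat2 and Sars, and 5 tRNA genes of the mitochondrial genome (mt-Tn, mt-Ty, mt-Ts2, mt-Tl2 and mt-Tp), which summed to 18.6 and 14.9 CPM in Zscan4 OE against 59.4 and 58.5 CPM in ESC and 61.0 and 71.0 CPM in DMSO.

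**Figure D4:**
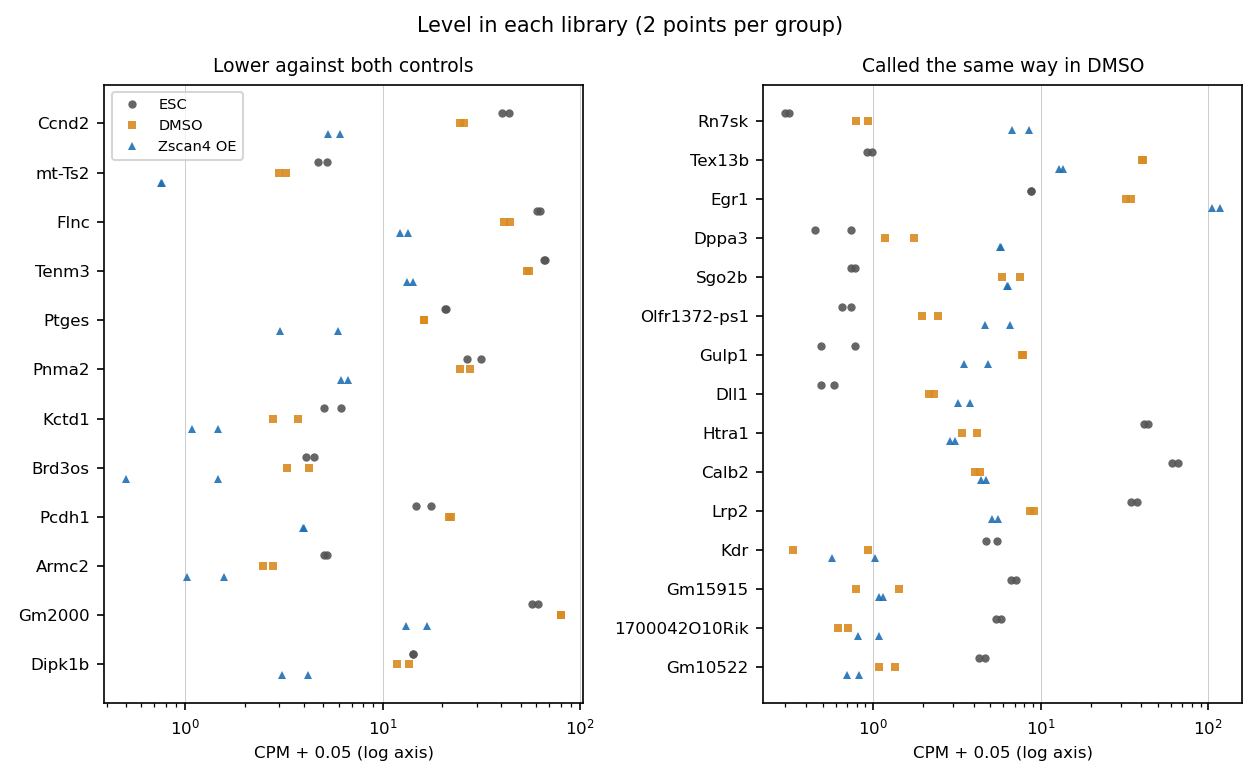
Level of each gene in each of the 6 libraries, as CPM + 0.05 on a log axis, for the 12 named genes lower against both controls (left) and the 15 named genes called the same way in DMSO against ESC (right). Circles are ESC, squares DMSO and triangles Zscan4 OE, 2 points per group. On the left the triangles lie to the left of both controls, while on the right DMSO and Zscan4 OE lie on the same side of ESC for each gene. The genes were chosen by these calls, so the sides follow from the choice.

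Targets of the integrated stress response, the programme by which ATF4 raises amino acid synthesis and transport, fell in part. Of 35 tested, 8 were lower (22.9%, against 4.39% of all genes), all 8 also lower than in DMSO, 2 were higher and marked by DMSO, and the median was -0.64. With scaling by library size only, 5 were lower and the median was -0.48. Psat1, an enzyme of serine synthesis, had 231 and 226 CPM in Zscan4 OE, 663 and 652 CPM in ESC and 669 CPM in both DMSO libraries, a log2 fold change of -1.52 ± 0.10 (adjusted p = 8.1e-12, edgeR). Psph and Phgdh, the other enzymes of that pathway, fell from 53.8 and 48.9 CPM to 21.2 and 19 CPM and from 236 and 245 CPM to 113 and 111 CPM. Asns, asparagine synthetase, fell from 813 and 859 CPM to 381 and 378 CPM, and the tRNA synthetase genes Gars and Sars and the transcription factor gene Atf5 fell too.

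Chac1, which degrades glutathione, moved in opposite directions in the comparisons: it had 2.14 and 3.15 CPM in Zscan4 OE, 8.91 and 9.26 CPM in ESC and 29.5 and 30.4 CPM in DMSO. The list's median was 0.49 in DMSO against ESC, with 12 members called higher, and -1.23 in Zscan4 OE against DMSO, with 25 called lower, so the number of lower members depends on the control. Vldlr, a lipoprotein receptor, and Cebpb, a transcription factor, were the higher members, and both stood higher still in DMSO (Vldlr, 2.85 and 2.66 CPM in Zscan4 OE, 14.9 and 14.4 CPM in DMSO, 0.872 and 0.667 CPM in ESC).

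Glycolysis and hypoxia genes held 3 lower (10%) and 2 higher (6.67%) of 30 tested, with a median of -0.08. The higher share lay near the 7.25% over all genes. With scaling by library size only, 1 was lower and 4 were higher, so the balance of this list depends on the scaling. The lower genes Ldhb, Hk1 and Gapdh encode glycolytic enzymes and were lower than both controls; Ldhb had 187 and 179 CPM against 499 and 501 CPM in ESC, while Gapdh had 366 and 594 CPM against 966 and 983 CPM, with the Zscan4 OE libraries far apart; without Zscan4 OE replicate 1 its log2 fold change was -0.71 and it was not called. Bnip3, a mitophagy receptor induced in hypoxia, was higher at 107 and 109 CPM against 32.1 and 34.9 CPM, was marked by DMSO and stood at 219 and 218 CPM there, and P4ha2, also marked, was the other higher gene. Of 34 matrix genes, 8 were lower (23.5%) and 4 higher (11.8%), with a median of -0.32. With scaling by library size only, 5 were lower and 4 higher. Serpinh1, a collagen chaperone, had 17.2 and 15.7 CPM in Zscan4 OE, 54.3 and 49.7 CPM in ESC and 93.0 and 91.1 CPM in DMSO, and Col6a2 and Col5a1 were also lower than both controls. Ccn2, a matricellular protein, was higher than both controls at 9.38 and 9.02 CPM against 2.93 and 2.87 CPM in ESC and 0.227 and 0.494 CPM in DMSO, as were Thbs1 and Col12a1. Col18a1, Sparc, Lama1 and Col6a3 were lower and marked by DMSO, and Loxl2 was higher and marked.

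Among the 543 higher genes marked by DMSO, the median log2 fold change against ESC was 1.56, against 2.53 for the 638 higher than both controls. Tex13b, an X-linked germ-cell gene, had 13.6 and 12.8 CPM in Zscan4 OE, 40.5 and 40.7 CPM in DMSO and 0.872 and 0.933 CPM in ESC. Its log2 fold change of 3.86 ± 0.23 against ESC (adjusted p = 9.1e-13, edgeR) stood beside 5.48 in DMSO against ESC, and its log2 fold change in Zscan4 OE against DMSO was -1.62. Sgo2b, a shugoshin-like gene, and Gulp1, an adaptor of phagocytosis, had similar or higher levels in DMSO than in Zscan4 OE (Gulp1, 3.43 and 4.78 CPM in Zscan4 OE, 7.77 and 7.73 CPM in DMSO, 0.436 and 0.733 CPM in ESC). Dll1, a Notch ligand, had 3.75 and 3.15 CPM in Zscan4 OE and 2.10 and 2.25 CPM in DMSO against 0.436 and 0.533 CPM in ESC.

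Other marked genes rose further in Zscan4 OE. Dppa3, which encodes the maternal factor Stella, had 5.76 and 5.70 CPM in Zscan4 OE, 1.13 and 1.70 CPM in DMSO and 0.685 and 0.40 CPM in ESC (log2 fold change 3.38 ± 0.39, adjusted p = 1.1e-07, edgeR). Rn7sk, the non-coding RNA that holds the elongation factor P-TEFb, had 6.73 and 8.53 CPM, 0.737 and 0.877 CPM, and 0.249 and 0.267 CPM in the same order; its transcript is not normally polyadenylated. Olfr1372-ps1, an olfactory receptor pseudogene, had 6.54 and 4.62 CPM, 2.38 and 1.92 CPM, and 0.685 and 0.60 CPM. In all, 13 of the 543 marked genes were also called higher than in DMSO and 75 were called lower than in DMSO.

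Among the 403 lower genes marked by DMSO the median log2 fold change was -1.53, and 47 of them were called higher in Zscan4 OE than in DMSO. Htra1, a secreted serine protease, had 3.04 and 2.82 CPM in Zscan4 OE and 3.35 and 4.11 CPM in DMSO against 43.7 and 41.5 CPM in ESC, a log2 fold change of -3.86 ± 0.21 (adjusted p = 2.4e-13, edgeR). Calb2, the calcium-binding protein calretinin, had 4.66 and 4.35 CPM and 4.31 and 4.00 CPM against 60.5 and 65.6 CPM. For these genes the Zscan4 OE and DMSO values lay close together and far from ESC. Lrp2, the endocytic receptor megalin, Kdr, a VEGF receptor, Gm15915, 1700042O10Rik and Gm10522 fell by 2.63 to 2.77 on the log2 scale.

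In the lists that follow, the shares of called members are to be read against 7.25% higher and 4.39% lower over all genes. Of 19 core pluripotency genes, Tcl1, a coactivator of AKT, was higher and marked by DMSO, Utf1, a chromatin-bound ESC factor, was lower (5.26% in each direction), and the median was 0.01. Utf1 had 174 and 168 CPM in Zscan4 OE against 364 and 368 CPM in ESC and 411 and 433 CPM in DMSO. Of 22 naive genes, Tcl1 and Dppa3 were higher and marked (9.09%), Gbx2, a homeobox gene, was lower (4.55%), and the median was -0.10. The core and naive shares lay near those over all genes. Of 23 formative and primed genes, Cldn6 and Zic5 were higher and marked by DMSO (8.70%), Utf1, Etv4, Cdh2 and Fst were lower (17.4%), Fst being marked, and the median was -0.08. With scaling by library size only, 5 of this list were higher and 1 lower, so its balance depends on the scaling. Several genes count in more than 1 list, among them Tcl1, Dppa3, Utf1, Fst, Gbx2, Hand1, Id2, Etv4, Sp110, Sycp3 and Hormad1.

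Of 24 primitive endoderm genes, 5 were lower (20.8%) and 1, Srgn, was higher (4.17%), with a median of -0.20; the lower genes were Lama1, Lamc1 and Sparc, which encode matrix proteins, Cubn and Fst, all marked by DMSO except Lamc1. Of 21 trophectoderm genes, Id2 and Fgfr2 were higher (9.52%) and 3 were lower (14.3%), Hand1, Ly6a and Sox21, with a median of 0.01; all but Hand1 were marked. Ly6a, a GPI-anchored surface protein, had 2.14 and 1.30 CPM in Zscan4 OE, 9.22 and 9.26 CPM in ESC and 0 and 0.165 CPM in DMSO. Of 21 mesendoderm and Nodal genes, 3 were higher and marked (14.3%), among them Lefty1 and Lefty2, targets of Nodal signalling, Kdr, marked, and Hand1 were lower (9.52%), and the median was 0.36; Lefty1 had 54.6 and 51.8 CPM in Zscan4 OE, 17.7 and 19 CPM in DMSO and 7.23 and 9.26 CPM in ESC. Of 18 neural genes, Dll1, Map2 and Pax6 were higher (16.7%) and Tubb3 and Gbx2 were lower (11.1%), with a median of 0.49. Over the 15 members not at the floor in both groups, the median was 0.11 with levels raised to the floor. Dll1, Map2 and Tubb3 were marked. With 1 to 5 called members per list and direction, these shares rest on few genes. They also depend on the scaling. By library size only, primitive endoderm had 1 higher and 2 lower, and trophectoderm 4 higher and 2 lower. Mesendoderm and Nodal genes then had 4 higher and 1 lower, and neural genes 5 higher and 2 lower. Of 11 genes on the wider fibroblast list, none was called in either direction by edgeR or DESeq2, and 2 passed an unadjusted p under 0.05. Vim had 122 and 123 CPM in Zscan4 OE against 210 and 217 CPM in ESC. Vim and Thy1 fell by 0.80 and 0.50 on the log2 scale (adjusted p = 4.9e-06 and 0.00598, edgeR), less than the 2-fold change of a call.

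Signalling and immune lists were mixed. Of 20 Wnt targets, 1 was lower (5.00%), Notum, a secreted Wnt inhibitor marked by DMSO (8.02 and 10.3 CPM against 31.6 and 27.1 CPM), and the median was 0.21. Of 17 BMP genes, Id2 and Msx2 were higher (11.8%) and Smad6, an inhibitor of BMP signalling, was lower (5.88%), with a median of 0.24; Id2 and Smad6 were marked. Of 27 interferon and antiviral genes, Sp110 and Sp140 were higher than both controls (7.41%), Oas2, Irf1 and Ifi27 were lower and marked (11.1%), and the median was -0.06. Of 17 genes of MHC class I and antigen presentation, 5 were higher (29.4%), 4 of them marked by DMSO, and the median was 0.78 in Zscan4 OE and 0.74 in DMSO against ESC. Tap1, of the peptide transporter, had 4.40 and 4.94 CPM in Zscan4 OE and 2.33 and 4.06 CPM in DMSO against 1.49 and 1.67 CPM in ESC. Of 24 imprinted genes, 5 were higher (20.8%) and 1 lower (4.17%), with a median of 0.34; Rian, a non-coding RNA, had 12 and 11 counts in Zscan4 OE and 1 and 0 in ESC, Xlr3b had 1.36 and 2.23 CPM against 0.187 and 0.467 CPM, Plagl1, a zinc finger gene, had 13.5 and 13.2 CPM against 5.92 and 7.07 CPM, and Kcnq1ot1, a long non-coding RNA, was lower and marked. Usp29 and Sgce, the latter marked, were the other higher genes.

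Of 39 cell cycle genes, 4 were higher (10.3%) and 3 were lower (7.69%), with a median of -0.18. Rb1, the retinoblastoma protein, was higher than both controls at 55.5 and 54.7 CPM against 22.4 and 21.7 CPM in ESC. Ccne2, Bub1 and Cdkn2c were higher and Ccnd2, Ccnd3 and Cdkn2a were lower, of which Bub1, Cdkn2c and Cdkn2a were marked by DMSO. Of 18 genes of DNA methylation, Dppa3, marked, was higher (5.56%), with a median of -0.07. Of 13 SR splicing factors, Srsf12 was higher (7.69%) at 1.88 and 2.12 CPM against 0.810 and 0.533 CPM, with a median of 0.12.

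None of 40 ribosome biogenesis genes was called by edgeR or DESeq2, though 34 passed an unadjusted p under 0.05, and the median was -0.35. A call also needed a 2-fold change. Npm1, which rose by 0.56 on the log2 scale (adjusted p = 1.0e-05, edgeR), fell short of it. Ncl had 4250 and 4210 CPM in Zscan4 OE against 3820 and 3790 CPM in ESC. Of 90 cytosolic ribosomal protein genes, Rpl37a, Rplp2 and Rpl32l were lower (3.33%), with a median of -0.21. Of 77 mitochondrial ribosome genes, 3 were lower (3.90%), 1 of them marked, and 1 higher (1.30%), with a median of -0.35. Of 80 nuclear respiratory chain genes, 3 were lower (3.75%), 1 of them marked, and 1 higher (1.25%), with a median of -0.32. These shares lay below those over all genes. Among 13 protein genes of the mitochondrial genome, mt-Nd4 and mt-Nd6 were lower, mt-Co3 and mt-Atp6 were higher and marked by DMSO (15.4% in each direction), and the median was -0.02. mt-Nd4 had 995 and 961 CPM in Zscan4 OE against 2160 and 2100 CPM in ESC, and mt-Co3 had 73.8 and 66.7 CPM against 14.5 and 17.5 CPM.

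Of 25 cholesterol biosynthesis genes, 2 were lower and marked by DMSO (8.00%), among them Fdft1, and the median was -0.48; Fdft1, at 114 and 115 CPM against 228 and 230 CPM in ESC, lay at the 2-fold limit. Of 22 unfolded protein response genes, Dnajb9 was higher and Xbp1, marked by DMSO, lower (4.55% in each direction), with a median of -0.21. None of 20 heat shock genes was called by edgeR or DESeq2, 14 passed an unadjusted p under 0.05, and the median was -0.15. Hsp90aa1, which rose by 0.47 on the log2 scale (adjusted p = 2.2e-04, edgeR), stayed below the 2-fold limit of a call. Hsp90ab1 had 7250 and 7390 CPM against 7670 and 7750 CPM in ESC. Of 18 genes of metal and oxidative stress, Gstm1, a glutathione transferase, was lower than both controls at 12.7 and 13.6 CPM against 30.8 and 34.3 CPM (5.56% of the list), with a median of -0.08. With scaling by library size only, no gene of the cholesterol, mitochondrially encoded or mitochondrial ribosome lists was lower, and the list medians that lay between -0.15 and -0.02 came to between 0.00 and 0.13, so no direction is read from them.

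**Figure D5:**
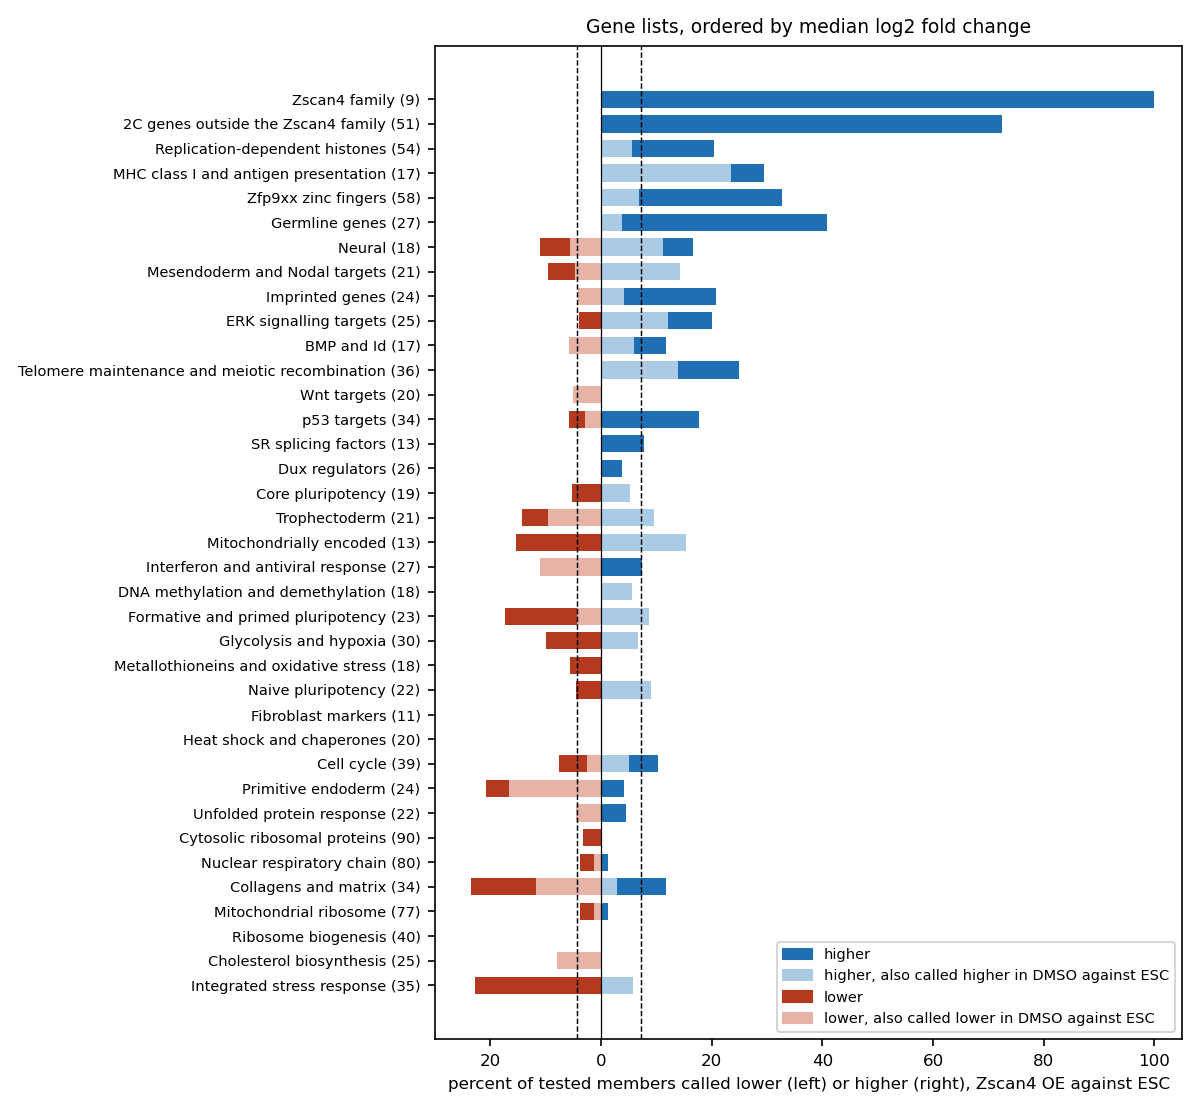
Share of the tested members of each gene list (number tested in brackets) called higher (to the right, blue) or lower (to the left, red) in Zscan4 OE against ESC, with the part also called the same way in DMSO against ESC in pale colour. Dashed lines mark the shares over all genes, 7.25% higher and 4.39% lower. Lists are ordered by median log2 fold change, with the Zscan4 family (100% higher) at the top and the integrated stress response (22.9% lower) at the bottom.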

How the data were processed

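Poly(A) RNA of mouse ESCs was sequenced, and the authors deposited raw counts of reads per gene for 26 libraries in 13 groups of 2. The submitters' processing notes list FastQC, Trimmomatic, STAR, featureCounts, DESeq2 and the build mm10; versions, strand setting and the treatment of reads that fit several places are not given in the sources used here. Every column was mapped to a library by its title (0 columns left over). The dose of DMSO and its time are not given.

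Counts were tested with edgeR 4.0.16 and limma 3.58.1 in R 4.3.3 (quasi-likelihood test, TMM normalization, filterByExpr, prior count 0.125), with all 26 libraries in 1 model, which kept 20953 of 55291 genes. The spread of a gene was thus estimated over all 13 groups together. An SE is the absolute log2 fold change divided by the square root of the F statistic of that fit. Calls needed a 2-fold change in either direction (1 on the log2 scale) and, after Benjamini-Hochberg adjustment over all genes tested, a p under 0.05. The test was checked on simulated data. The methods state no test, so DESeq2 1.42.0 was an alternative, along with another normalization, no filter, 6 libraries only, no minimum fold change, DMSO as the control, a replicate block and leaving out each library. The floor for a ratio was 3 counts, and intervals and floors cover counting error only.

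Members, gene lists and tests were chosen with earlier results of these data known. Genes were named as follows: the Zscan4 family and Duxf3; the 12 of largest change per direction against both controls and the 8 per direction also called in DMSO, with a mean log2 CPM of at least 1 and libraries that do not overlap; and up to 4 called members per list, or 2 of highest level where none was called; some genes that this rule chose are not reported here and were not replaced. Members of runs and other called list members were named after their values were seen. Biotypes came from GENCODE M21, which named 53291 of the genes, of which 52885 (99.2%) had the same start and end. Promoter windows were matched by symbol, chromosome and strand to 13364 tested genes (63.8%). Replicates of a group differed by more than sampling noise (chi-square per degree of freedom 1.81 in ESC, 2.59 in Zscan4 OE and 2.29 in DMSO).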

Additional observations from a re-analysis of the deposited data

How the results depend on the processing

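The number of genes higher in Zscan4 OE than in ESC stayed within 1.5 times under the replicate block, with DESeq2, with 6 libraries only, with no low-count filter, under RLE normalization and with library size only, and so did the other counts of calls, except that library size only gave 603 lower genes in place of 919. With no minimum fold change, Zscan4 OE against ESC gave 3970 higher and 4111 lower, DMSO against ESC 4446 and 4695, Zscan4 OE against DMSO 3788 and 3698, and the genes also called in DMSO numbered 2237 and 2584, since small changes then count. Leaving out 1 library at a time gave 1188 to 1530 higher and 727 to 909 lower in Zscan4 OE against ESC, 1499 to 1744 higher and 1383 to 1650 lower in DMSO against ESC, 1226 to 1588 higher and 883 to 1067 lower in Zscan4 OE against DMSO, and 439 to 493 higher and 320 to 353 lower also called in DMSO. Samples with the same replicate number showed no shared deviation (correlations of -0.03, 0.01 and 0.01). With 2 libraries per group, this cannot exclude that libraries with the same number were prepared together. The replicate block gave 1503 higher and 903 lower, of which 540 and 396 were also called in DMSO. With library size only, Utf1, Lama1, Lamc1, Fdft1, Hk1, Gapdh, mt-Nd6, mt-Nd4, Atp5d, Ndufb2, Mrps6, Mrps7, Mrpl12, Rplp2 and Irf1 were no longer called lower. Of the 37 list medians, 33 moved by more than 1 SD over the pairs of libraries with library size only, 18 with no low-count filter, 16 with 6 libraries only, 2 with DESeq2, 1 under RLE normalization, none under the replicate block and 32 with DMSO as the control; over the fits that left out 1 library, 42 medians moved and 106 did not. Without 1 of the ESC or Zscan4 OE libraries, these named genes lost their call: Sycp2, mt-Atp6, Ndufb2 and Plagl1 without ESC replicate 1, Msx2 and Srsf12 without ESC replicate 2, Fst and Gapdh without Zscan4 OE replicate 1, Mrps6, Rplp2, Irf1, Usp29 and Zfp947 without Zscan4 OE replicate 2, and H1f1, Fdft1, Mrps7 and Mrpl12 in more than 1 of these fits; the cause was not tested.

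The log2 fold change of Hsp90ab1 turned to 0.08 with library size only. With DMSO as the control the sign turned for genes that had moved as far or further in DMSO: Tex13b -1.62, Sgo2b -0.07, Gulp1 -0.90, Calb2 0.11, Kdr 0.38, Gm15915 0.01, 1700042O10Rik 0.53, Sycp3 -0.22, Meiob -1.60, Tcl1 -0.42, Fst 1.90, Zic5 -0.62, Sparc 0.34, Ly6a 4.24, Sox21 1.20, Lefty2 -0.28, Map2 -0.43, Vldlr -2.41, Cebpb -0.71, Hsp90aa1 -0.44, Fdft1 0.23, Bnip3 -1.01, mt-Co3 -0.86, mt-Atp6 -0.56, Ndufb2 0.18, Mrps7 0.10, Ncl -0.05, Npm1 -0.04, H4c4 -0.19, Cdkn2a 0.19, Bub1 -0.23, Smad6 0.10, Irf1 0.55, Kcnq1ot1 0.35, Sgce -0.66 and Zfp948 -0.12.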
